A study of Mus musculus with 13 samples.

Results

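Mutant mice kept on a high-fat diet were compared with mutant mice kept on a normal diet, by total RNA of the duodenum on 5 of the 13 arrays of the series. The labelled genotype and diet chose the arrays: 2 from K-Ras mutants on high-fat diet and 3 from K-Ras mutants on normal diet. In both groups the diet began after 5 weeks of age and the mice were killed after 22 weeks on it, and the strain background was mixed. For comparison the series holds 2 wild-type arrays on high-fat diet, 2 on normal diet, and arrays of high-fat diet with butyrate (3 from mutants, 1 from wild type). The labels call the mutant line ViRas, and as background it is known to switch on a mutant K-Ras in intestinal epithelium through Cre recombinase driven by the villin promoter, which is not active in the muscle, stroma or blood cells of the same tissue. The K-Ras gene itself was not analysed here. The array identifiers run in a separate number range for each diet, so diet and array series cannot be told apart in any comparison given here.

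The duodenum is the first stretch of small intestine. Its enterocytes take up dietary iron, sugar and fat: iron is reduced at the brush border, carried in by a divalent metal transporter and released to the blood through ferroportin, while fatty acids are rebuilt into triglyceride and packed into chylomicrons. Low oxygen or low iron stabilises hypoxia-inducible factor 2 alpha, which is known to raise the iron uptake genes. Enterocytes also burn fatty acids under control of the nuclear receptor PPAR alpha, and are renewed from dividing crypt cells.

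Values are log2 RMA levels, so a difference of 1 is a doubling, and 1 probe set stands for each of 12393 genes. Differences are high-fat minus normal diet, ± standard error, and the adjusted p comes from limma with Benjamini-Hochberg adjustment over all genes, with a threshold of 0.05. By this test 2197 genes (17.7%) differed between the diets in mutants. Of these, 951 (7.67% of all genes) were higher and 1246 (10.1%) were lower on high-fat diet, and 258 differed at least 2-fold, 168 upward and 90 downward. Over all genes the median difference was -0.02. In 2943 genes (23.7%) both high-fat arrays lay above all 3 normal diet arrays, and in 3461 (27.9%) both lay below. The counts given for gene lists below are to be read beside these shares over all genes, and some lie near them. The count of genes past the threshold was 990 without high-fat array 1, 1043 without high-fat array 2, 1245 without normal diet array 1 and 1447 without normal diet array 2, and was 1522 without normal diet array 3. These fits have 6 residual degrees of freedom against 7, and 1 array fewer in a group of 2 or 3. The part of either in the lower counts was not tested.

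Array facts moved with diet too. The mean of the 18S ribosomal RNA control probe sets was 10.85 and 11.42 on the high-fat arrays and 9.38, 9.76 and 10.29 on the normal diet arrays, and the actin controls differed between their 3′ and 5′ probe sets by 0.28 and 0.20 against 0.73, 0.63 and 0.65. Both facts held in wild type as well, with actin differences of 0.32 and 0.42 on high-fat and 0.73 and 0.69 on normal diet, whereas the mutant Gapdh controls differed by -0.09 to 0.02 over both diets. Some spike controls were lower on the mutant high-fat arrays: DapX-3 read 9.98 and 9.98 against 10.40, 10.62 and 10.65. LysX-3 read 7.03 and 6.70 against 7.35, 7.67 and 7.83, whereas BioB-3 overlapped (8.30 and 8.29 against 7.76, 8.32 and 8.53). In wild type DapX-3 read 10.13 and 10.06 on high-fat and 9.59 and 10.84 on normal diet. The part of all these controls in the gene differences was not tested. The 2 high-fat arrays correlated with r = 0.9892 across genes, the normal diet arrays with 0.9846 to 0.9939, and high-fat with normal diet arrays with 0.9722 to 0.9825. Markers of intestinal epithelium were high on all 5 arrays: villin (Vil1) stood at 12.27 and 12.17 against 11.96, 12.03 and 11.83, and the fatty acid binding protein Fabp1 at 13.75 and 13.78 against 13.62, 13.73 and 13.53. Of 11 general epithelial genes, 0 passed by limma and 3 had an unadjusted p under 0.05, each higher on high-fat diet (median difference 0.04).

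**Figure D1:**
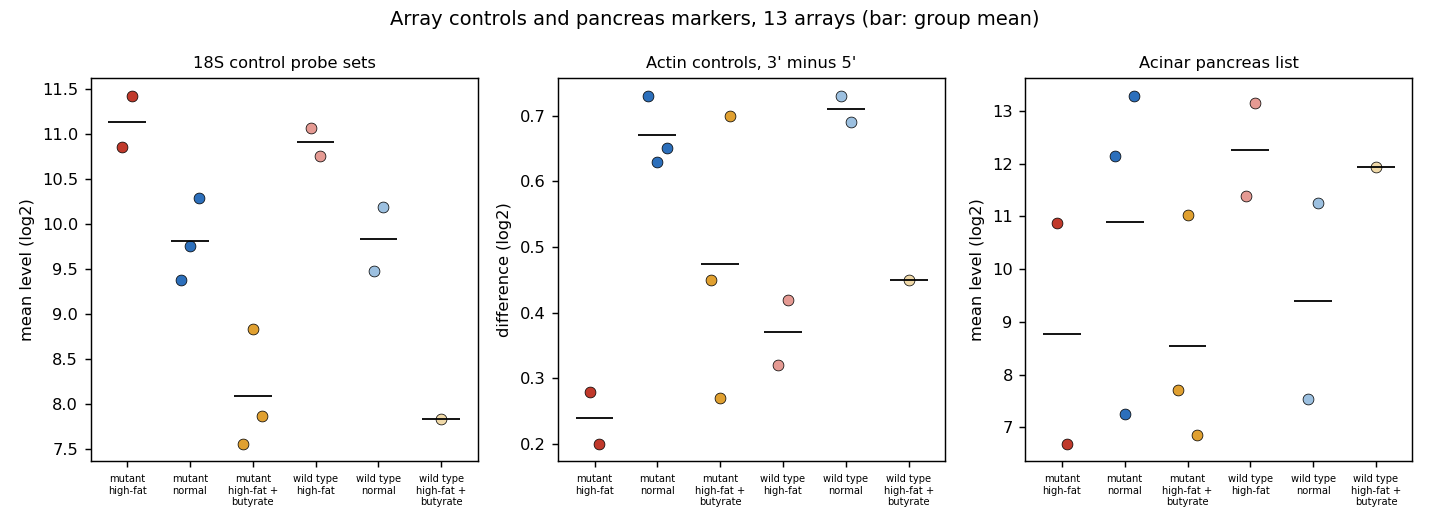
Each point is 1 array: the left panel gives the mean log2 level of the 18S control probe sets, the middle panel the log2 difference between the 3′ and 5′ actin controls, and the right panel the mean log2 level of the acinar pancreas genes, with bars at group means. High-fat and normal diet arrays separate in the left and middle panels in both genotypes, whereas the pancreas genes vary from 6.68 to 13.29 among the 5 mutant arrays compared, with overlap between the diets.

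Several iron absorption genes rose on high-fat diet. The brush-border iron reductase Cybrd1 and the iron transporter Slc11a2 (DMT1) had the 2 largest differences among the genes named by the rule, and the gene of hypoxia-inducible factor 2 alpha, Epas1, was higher as well. Of 10 measured genes of iron absorption, 4 rose and 1 fell, with a median difference of 0.59 against -0.02 over all genes. The list had 3 to 5 rises in fits without 1 of the 5 arrays, and 1 fall in each of them.

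Cybrd1 stood at 11.44 and 9.76 on the high-fat arrays and at 6.21, 6.30 and 6.32 on the normal diet arrays. The difference was 4.33 ± 0.73, or 20-fold, with an adjusted p of 0.00294. Both high-fat arrays lay far above the normal diet arrays but also differed from each other by more than the normal diet arrays did, and without high-fat array 1 the difference was 3.49 with an adjusted p of 0.0385. Slc11a2 read 12.03 and 11.02 against 7.12, 7.58 and 7.20, a difference of 4.22 ± 0.71 (18.7-fold, adjusted p = 0.00273). Its 3 probe sets all rose, by 4.22, 3.03 and 1.12. Epas1 read 8.41 and 7.84 against 6.34, 6.21 and 6.25, a difference of 1.85 ± 0.24 (3.62-fold, adjusted p = 0.000749). The 3 genes did not overlap between the diets, and high-fat array 1 was the higher of the pair in each.

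Ferroportin (Slc40a1), the exporter on the blood side, read 11.96 and 11.21 against 10.26, 10.32 and 10.66, a difference of 1.17 ± 0.32 with an adjusted p of 0.0266. This call was lost without high-fat array 1, normal diet array 1 or normal diet array 2, with adjusted p up to 0.225. Hfe, whose product restrains iron uptake through hepcidin, fell, with 6.13 and 6.02 against 7.17, 7.26 and 6.90 and a difference of -1.04 ± 0.20 (adjusted p = 0.0058). The mean of its 2 probe sets did not pass. The other 5 genes did not pass the test: the transferrin receptor Tfrc differed by 0.40 (adjusted p = 0.127), the ferroxidase Heph by 0.20, ferritin heavy chain Fth1 by 0.13, heme oxygenase Hmox1 by 0.44 and the folate transporter Slc46a1 by 0.74. The array's own 3′ transferrin receptor control probe set, which was not tested, read 6.84 and 6.79 against 5.31, 5.55 and 5.65. Other mouse controls were also higher on the mutant high-fat arrays. The PyruCarb MB control averaged 7.64 against 5.92 and the 3′ Gapdh control 13.07 against 12.69. The controls MUR_b2 (6.63 against 7.09), MURINE_b1 (7.54 against 9.04) and MURINE_B2 (12.51 against 12.96) were lower. The part of this wider shift in the transferrin receptor control was not tested.

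Of 8 measured genes listed for the proximal intestine, 4 rose and 0 fell (median difference 0.76). In 7 of them both high-fat arrays lay above all normal diet arrays. Over all genes, 7.67% rose and both lay above in 23.7%. Cybrd1 and Slc40a1, 2 of the 4, are also in the iron list. The others were Gata4, a transcription factor of the proximal small intestine, and carbonic anhydrase Car1. Car1 was low on the normal diet arrays and is not taken here as specific to this segment. Gata4 read 9.37 and 9.15 on high-fat and 8.55, 8.55 and 8.15 on normal diet, a difference of 0.84 ± 0.20 (adjusted p = 0.0152), and it passed in 2 of the 5 fits without 1 array, with adjusted p up to 0.117. The duodenal and pancreatic factor Pdx1 (0.68), lactase Lct (-0.06), Apoa4 (0.24) and Fabp1 (0.14) did not pass. The list held 1 rise without high-fat array 1 and 3 without any other 1 array.

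**Figure D2:**
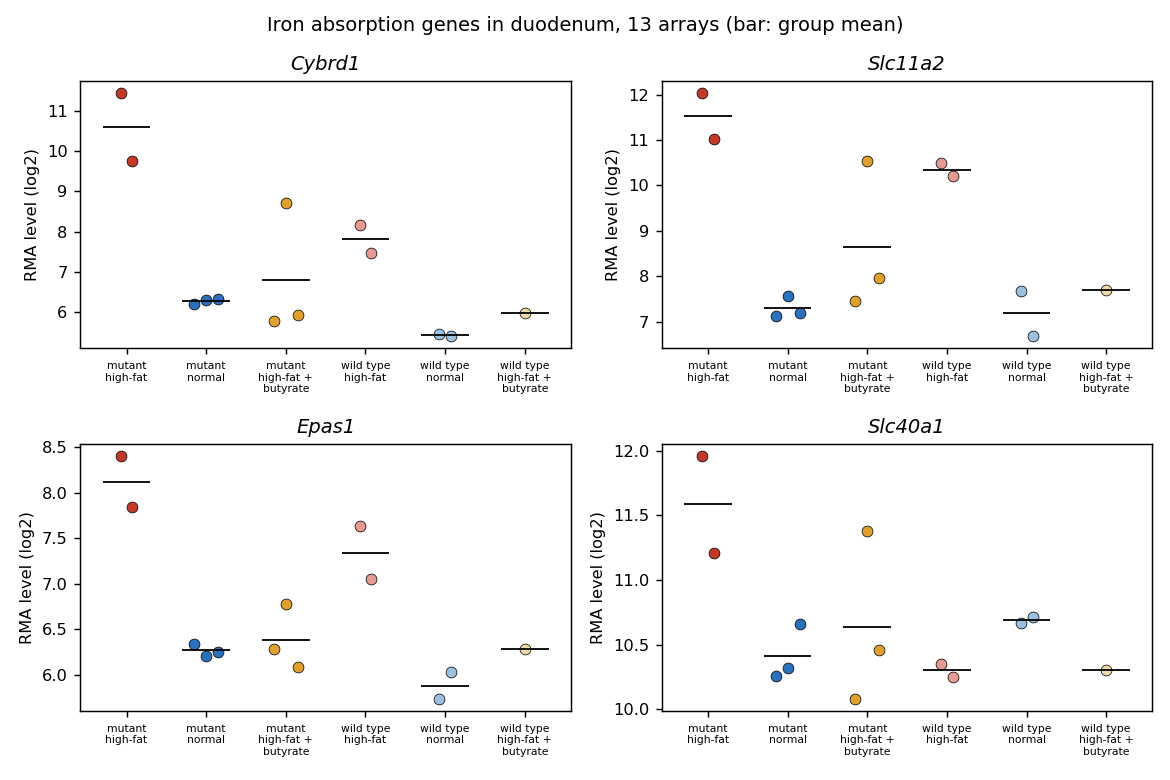
Log2 RMA level of Cybrd1, Slc11a2, Epas1 and Slc40a1 on each of the 13 arrays (points) in the 6 groups, with bars at group means. In Cybrd1 the mutant high-fat arrays read 11.44 and 9.76 and the mutant normal diet arrays 6.21 to 6.32, and mutant high-fat with butyrate array 2 stands apart from the other butyrate arrays in all 4 genes.

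The promoter of Cybrd1 is shown because this gene had the largest rise and because hypoxia-inducible factors bind a short core, written here as ACGTG or GCGTG and searched on both strands. The sequence is RefSeq's, around the start of the gene (GRCm38.p6, chr2:71117804-71118103, forward strand), with the motif in capitals, which begins at position -161 from the start site.
Cybrd1: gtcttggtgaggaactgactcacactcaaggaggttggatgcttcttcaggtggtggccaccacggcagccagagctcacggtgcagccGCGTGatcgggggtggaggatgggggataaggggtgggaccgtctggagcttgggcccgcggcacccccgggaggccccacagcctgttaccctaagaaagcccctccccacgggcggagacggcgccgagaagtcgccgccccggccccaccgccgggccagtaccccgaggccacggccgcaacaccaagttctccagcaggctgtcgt
This core occurs in 43.8% of all 32851 promoters in the RefSeq table, so its presence in 1 promoter is a description of the sequence and no sign of binding. Of the 5 iron genes that passed the test, 2 had an entry in that table and 1 of these held the core.

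Some genes that take up, store or release fat rose on high-fat diet. Of 22 measured genes of fat uptake and chylomicron assembly, 8 rose and 0 fell (median difference 0.33), and 5 rose without high-fat array 1 or normal diet array 1 and 6 or 7 without any other 1 array. Hormone-sensitive lipase (Lipe), which releases fatty acids from stored fat, read 8.94 and 8.90 on high-fat and 7.64, 7.86 and 7.73 on normal diet. Its difference was 1.18 ± 0.15 (2.26-fold, adjusted p = 0.000732). Mttp, which loads lipid onto apolipoprotein B, read 12.60 and 12.75 against 11.87, 11.99 and 11.82, a difference of 0.78 ± 0.10 (adjusted p = 0.000893). In Lipe and Mttp the diets were separated by more than the spread within either diet on the probe set tested. With its probe sets averaged Mttp differed by 0.39 (limma, adjusted p = 0.0259). The fatty acid transport protein Slc27a4 differed by 0.57 ± 0.09 (adjusted p = 0.00231) and adipose triglyceride lipase Pnpla2 by 0.74 ± 0.13 (adjusted p = 0.004). These 4 passed in every fit without 1 array. The fatty acid binding proteins Fabp1 (0.14) and Fabp2 (0.01), Cd36 (-0.01) and apolipoprotein genes Apob (0.18) and Apoa1 (0.00) did not pass.

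Fatty acid oxidation and PPAR alpha targets gave 7 rises and 0 falls among 32 measured genes (median difference 0.21). The largest was Acot2, a mitochondrial acyl-CoA thioesterase, at 6.55 and 7.24 against 5.04, 4.97 and 4.94. Its difference of 1.91 ± 0.21 (3.77-fold, adjusted p = 0.00033) passed in every fit without 1 array. Ppara itself read 8.31 and 9.11 against 7.21, 7.56 and 8.04, a difference of 1.11 ± 0.27 (adjusted p = 0.0159). The peroxisomal enzyme Ehhadh differed by 0.56 ± 0.11 (adjusted p = 0.00607) and the trifunctional protein subunit Hadha by 0.54 ± 0.13 (adjusted p = 0.014). These 3 each lost the call in some fit without 1 array: Ehhadh without high-fat array 2 (adjusted p = 0.0547), Hadha without high-fat array 1 (0.12), and Ppara without high-fat array 2 or normal diet array 1 (up to 0.162). The number of rises in the list was 3 without high-fat array 1, 2 without high-fat array 2, 3 without normal diet array 1, 6 without normal diet array 2 and 4 without normal diet array 3. The typical PPAR alpha targets Pdk4 (1.04), Angptl4 (0.68) and Cpt1a (0.46) were above 0 but did not pass.

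Fat synthesis genes went the other way where they passed. Of 17 measured, 0 rose and 3 fell (median difference -0.27). The desaturase Scd1, which makes monounsaturated fatty acids, had the largest fall among the genes named by the rule, at 4.72 and 4.55 against 8.89, 5.60 and 8.30. The difference was -2.96 ± 0.89 (adjusted p = 0.0423). The 3 normal diet arrays were far apart, with array 2 closest to the high-fat arrays. The call was lost without high-fat array 1 (adjusted p = 0.146), high-fat array 2 (0.166), normal diet array 1 (0.134) or normal diet array 3 (0.117), and the second Scd1 probe set differed by -0.35 without passing. Thrsp, a regulator of lipogenesis, fell by 0.72 and the elongase Elovl1 by 0.59, and they passed in 3 and 1 of the 5 fits without 1 array. The count of 3 falls became 1 without high-fat array 1, 0 without high-fat array 2, 0 without normal diet array 1 and 2 without normal diet array 2 or 3. Srebf1, the regulator of fat synthesis, read 9.99 and 10.57 against 9.26, 9.52 and 9.68 and did not pass (0.79, adjusted p = 0.0707). Of 19 cholesterol synthesis genes, 0 passed in either direction by limma (median difference -0.22), and 5 had an unadjusted p under 0.05, 2 higher and 3 lower.

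Slc16a3, a monocarboxylate transporter that carries lactate out of glycolytic cells, read 8.63 and 8.10 on high-fat and 5.54, 5.92 and 5.73 on normal diet, a difference of 2.63 ± 0.20 (6.21-fold, adjusted p = 4.62e-05). Tkfc, a kinase of triose and dihydroxyacetone in fructose breakdown, read 10.30 and 9.81 against 7.82, 8.08 and 8.01, a difference of 2.08 ± 0.16 (4.24-fold, adjusted p = 6.38e-05). Of 15 measured glycolysis genes, 5 rose and 0 fell (median difference 0.26), and 4 rose without normal diet array 2 and 3 without any other 1 array. Phosphofructokinase Pfkl rose from 9.09, 9.28 and 9.15 on normal diet to 10.99 and 10.57 on high-fat, a difference of 1.61 ± 0.26 (adjusted p = 0.00244). The pyruvate kinases Pklr (0.81 ± 0.11) and Pkm (0.86 ± 0.12) rose too, with adjusted p of 0.00123 and 0.00124. Ldha differed by 0.34 ± 0.10 (adjusted p = 0.0336), a call present in 1 of the 5 fits without 1 array. The fructose transporter Slc2a5 read 9.29 and 9.04 against 9.63, 9.83 and 9.38 and did not pass (-0.45, adjusted p = 0.0722). Of the 10 measured genes of sugar transport and fructose metabolism, Tkfc was the 1 that rose and 0 fell (median difference -0.05), and at an unadjusted p under 0.05 there was 1 higher and 3 lower.

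Vitamin A handling gave 3 rises and 0 falls among 13 measured genes (median difference 0.15). Rbp2, the retinol carrier of enterocytes, read 13.85 and 13.82 against 12.50, 12.73 and 12.41, a difference of 1.29 ± 0.13 (adjusted p = 0.00023). Lrat, which esterifies retinol, read 4.74 and 4.71 against 3.22, 3.28 and 3.41, a difference of 1.42 ± 0.18 (adjusted p = 0.000714). The 2 high-fat arrays nearly coincided in both genes. Dgat1, the third, is also a triglyceride enzyme and differed by 0.35 ± 0.09. It was past the threshold in 1 of the 5 fits without 1 array. At the brush border, the cadherin Cdhr5 rose by 0.95 ± 0.10 (adjusted p = 0.00037) and trehalase (Treh) by 0.57 ± 0.14, 2 of 14 measured genes with 0 falls. Treh was lost without high-fat array 1 or normal diet array 1, with adjusted p up to 0.135.

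Of 28 measured interferon-stimulated genes, 8 rose and 0 fell on high-fat diet, with a median difference of 0.53, and 7 rose without high-fat array 1 or without any 1 of the normal diet arrays. Without high-fat array 2 the number was 5. Ifit1, an RNA-binding antiviral protein, read 9.06 and 9.02 on high-fat and 6.61, 6.76 and 6.92 on normal diet, a difference of 2.27 ± 0.20 (4.84-fold, adjusted p = 0.000119). Irf7, the regulator that amplifies type I interferon, read 9.91 and 9.57 against 8.20, 8.53 and 8.37, a difference of 1.37 ± 0.16 (adjusted p = 0.000416). Oasl2 and Stat2, an antiviral protein and a part of the interferon signalling complex, differed by 1.42 ± 0.24 (adjusted p = 0.00279) and 1.18 ± 0.21 (adjusted p = 0.00398). These 4 did not overlap between the diets, and they passed in every fit without 1 array. The guanylate-binding proteins Gbp2 (-0.41), Gbp3 (0.02) and Gbp6 (0.26), the chemokines Cxcl9 (0.29) and Cxcl10 (0.31), and Mx1 (-0.26) did not pass. Of 10 genes of MHC class II presentation, 0 passed by limma and 0 had an unadjusted p under 0.05 (median difference 0.09). Of 20 T cell genes 0 passed by limma and 3 had an unadjusted p under 0.05 (median difference 0.01). The mean over the T cell list was 6.10 and 5.87 on the high-fat arrays and 5.97 to 6.14 on the normal diet arrays.

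The promoters of Ifit1 and Stat2 are shown because interferon regulatory factors and the complex that holds Stat2 bind elements with the letters GAAANNGAA, which were searched on both strands. The sequences are RefSeq's, over the same window (GRCm38.p6, Ifit1 at chr19:34640639-34640938 and Stat2 at chr10:128270248-128270547, both on the forward strand), and capitals mark the motif, here read on the other strand.
Ifit1: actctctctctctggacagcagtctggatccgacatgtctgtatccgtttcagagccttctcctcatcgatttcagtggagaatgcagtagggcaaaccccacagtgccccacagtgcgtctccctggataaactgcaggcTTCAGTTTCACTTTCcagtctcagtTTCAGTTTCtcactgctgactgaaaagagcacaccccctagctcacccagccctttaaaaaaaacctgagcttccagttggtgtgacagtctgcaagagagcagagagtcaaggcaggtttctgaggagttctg
Stat2: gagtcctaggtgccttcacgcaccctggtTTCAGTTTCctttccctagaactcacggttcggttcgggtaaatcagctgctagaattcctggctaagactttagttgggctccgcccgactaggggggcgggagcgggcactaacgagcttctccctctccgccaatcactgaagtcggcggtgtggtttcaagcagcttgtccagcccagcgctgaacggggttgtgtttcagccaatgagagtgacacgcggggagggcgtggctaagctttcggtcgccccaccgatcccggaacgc
Ifit1 had 3 matches, at positions -109, -103 and -84, of which the first 2 overlap, and Stat2 had 1, at -221. Such a match was found in 8.56% of all 32851 promoters. Of the 8 interferon genes that rose, 7 had an entry and 4 of these had a match, which describes these windows and not binding.

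The largest rise in insulin signalling was that of Irs2, an adaptor of the insulin receptor. It read 8.05 and 8.09 on high-fat and 5.72, 5.60 and 5.36 on normal diet, a difference of 2.51 ± 0.16 (5.68-fold, adjusted p = 2.1e-05). Of 19 measured genes of insulin and IGF signalling, 5 rose and 0 fell (median difference 0.09). The others named were the kinases Akt2 (0.46 ± 0.10, adjusted p = 0.0103) and Akt1 (0.56 ± 0.14, adjusted p = 0.0185) and the phosphatidylinositol kinase subunit Pik3r1 (0.99 ± 0.24, adjusted p = 0.0165). Each of these 3 lost the call without high-fat array 1, and the list then held 1 rise. Over the 5 fits without 1 array their adjusted p went up to 0.063, 0.114 and 0.142 in that order. The list held 3 rises in each of the other 4 fits without 1 array. Irs1 (-0.53), the insulin receptor Insr (0.33) and Foxo1 (0.00) did not pass.

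Among 12 measured genes of the Ras, Raf and MAP kinase core, which relay the signal of K-Ras, 6 rose and 1 fell in mutants (median difference 0.37). The same list had 6 rises and 0 falls in wild type (median difference 0.29), and 0 of its genes passed the limma test of the difference between genotypes. In mutants the kinase Map2k2 (MEK2) read 10.76 and 10.89 on high-fat and 9.68, 9.95 and 9.70 on normal diet, a difference of 1.05 ± 0.10 (2.07-fold, adjusted p = 0.000171). The adaptor Grb2 read 8.77 and 8.78 against 7.92, 8.02 and 7.94, a difference of 0.82 ± 0.14 (adjusted p = 0.00351). With probe sets averaged Map2k2 differed by 0.64 and Grb2 by 0.43. The adaptor Shc1 (0.69 ± 0.13) and the scaffold Ksr1 (0.67 ± 0.14) rose, with adjusted p of 0.00436 and 0.00909, and both lost the call without high-fat array 1 (0.054 and 0.0916). Araf, the gene that fell, did so by 0.31 (adjusted p = 0.037) and was named after its value was seen. The number of rises was 2 without high-fat array 1 and 6 in the other fits without 1 array, and the list had 0 falls in each of these 5 fits. Of 18 genes that respond to ERK, the last kinase of this chain, 1 rose and 2 fell (median difference 0.22). The one that rose, Spred2, an inhibitor of Ras signalling, differed by 0.68 ± 0.16, and Myc, which fell, by -0.69 ± 0.17. Spred2 passed in 2 and Myc in 1 of the 5 fits without 1 array.

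Of 29 measured cell division genes, 0 rose and 12 fell on high-fat diet (median difference -0.51). In 20 of them both high-fat arrays lay below all normal diet arrays. Over all genes, 10.1% fell and both lay below in 27.9%. Mki67, the marker of cycling cells, read 8.43 and 8.30 against 9.24, 9.16 and 9.06, a difference of -0.80 ± 0.12 (adjusted p = 0.00183). The mitotic kinase Cdk1 read 8.33 and 7.90 against 8.88, 9.03 and 8.90, a difference of -0.82 ± 0.16 (adjusted p = 0.0059). Cyclin D2 (Ccnd2) fell by 0.84 and survivin (Birc5) by 0.81, with adjusted p of 0.00614 and 0.00912. Mki67 passed in every fit without 1 array, whereas Cdk1, Ccnd2 and Birc5 missed the threshold without high-fat array 2, with adjusted p of 0.0656, 0.0607 and 0.0771. The Ccnd2 probe sets did not move together: of 7, 4 differed downward and 3 upward, by up to 0.97, and their mean differed by -0.24 without passing (adjusted p = 0.431). The number of falls was 1 without high-fat array 2, 4 without normal diet array 1 or 2, and 9 without high-fat array 1 or normal diet array 3. The mean level over the list was 7.52 and 7.29 on the high-fat arrays, with array 2 the lowest, and 7.88, 7.93 and 7.80 on the normal diet arrays. In bulk tissue fewer dividing cells and less of these transcripts per cell cannot be told apart. Of 16 genes of crypt stem cells and Wnt signalling, 1 rose and 1 fell (median difference -0.02), and 0 did either without high-fat array 1 or normal diet array 1.

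Ribosomal protein genes gave 0 rises and 5 falls among 11 measured (median difference -0.31). Rpl22 read 10.28 and 10.24 against 10.90, 10.90 and 10.85, a difference of -0.62 ± 0.08 (adjusted p = 0.000893). With its probe sets averaged it differed by -0.25 (limma, adjusted p = 0.0387). Rps19 fell by 0.40 and Rpl4 by 0.38. Rps24 differed by -0.25 (adjusted p = 0.0334) and passed in 0 of the 5 fits without 1 array. Falls in the list numbered 1 without high-fat array 1, 4 without high-fat array 2, 2 without normal diet array 1 or 2 and 3 without normal diet array 3. The 18S control probe sets, which report ribosomal RNA, moved in the opposite direction on the same arrays. Their part in this result was not tested.

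Genes of serine synthesis and of the unfolded protein response were lower where they passed. Phgdh, the first enzyme of serine synthesis, read 7.10 and 7.50 on high-fat and 9.20, 9.20 and 9.26 on normal diet, a difference of -1.92 ± 0.34 (3.78-fold lower, adjusted p = 0.00387). Its other 3 probe sets differed by -1.52, -0.91 and -0.23, of which the last did not pass. Of 26 measured genes of the ATF4 and unfolded protein response, 0 rose and 5 fell (median difference -0.27), with 3 to 6 falls in fits without 1 array. Manf, a factor secreted under stress of the endoplasmic reticulum, read 9.51 and 9.18 against 10.50, 10.41 and 10.07, a difference of -0.98 ± 0.17 (adjusted p = 0.00303). Creld2, induced by the same stress, fell by 0.81 (adjusted p = 0.00656), a call lost without high-fat array 2 (0.0646). Atf4 itself fell by 0.44 (adjusted p = 0.0435), and it passed in 1 of the 5 fits without 1 array. The falls numbered 3 without high-fat array 1, high-fat array 2 or normal diet array 2.

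Of 37 measured genes of glutathione and NRF2 detoxification, 3 rose and 5 fell (median difference -0.10), shares near the 7.67% and 10.1% over all genes. The glutathione transferase Gsta3 read 5.85 and 5.81 on high-fat and 7.93, 8.33 and 8.85 on normal diet, a difference of -2.54 ± 0.32 (5.81-fold lower, adjusted p = 0.000749), and its second probe set fell by 1.68. The peroxidase Gpx2 read 9.66 and 9.34 against 10.83, 10.91 and 10.56, a difference of -1.27 ± 0.28 (adjusted p = 0.0109), and missed the threshold without high-fat array 2 (0.0873). Gclm, the modifier subunit of the enzyme that starts glutathione synthesis, rose from 9.73, 9.82 and 10.09 to 10.92 and 10.96, a difference of 1.06 ± 0.19 (adjusted p = 0.0038). Mgst3 fell by 0.59 (adjusted p = 0.00188). In fits without 1 array the list had 1 to 4 rises and 2 to 4 falls, with the 2 falls and 4 rises without high-fat array 2, and 1 rise without high-fat array 1 or normal diet array 3. Outside the list, the aldo-keto reductase Akr1b10 read 3.60 and 3.47 against 5.11, 5.09 and 5.00, a difference of -1.53 ± 0.20 (adjusted p = 0.00087). The second Akr1b10 probe set differed by -0.02 without passing. The carbonyl reductase Cbr3 read 6.29 and 7.67 against 8.39, 8.99 and 8.30 (-1.59 ± 0.41, adjusted p = 0.0224), and missed the threshold without high-fat array 1, normal diet array 1 or normal diet array 2, with adjusted p up to 0.22. The flavin monooxygenase Fmo5 rose by 1.15 ± 0.15 (adjusted p = 0.000779), 1 of 2 rises among 27 genes of the cytochrome P450 list, which had 0 falls (median difference -0.02). The other rise, Fmo2, passed in 0 of the 5 fits without 1 array, and the list held 2 rises without high-fat array 2 and 1 without any other 1 array.

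Of 24 fibroblast and matrix genes, 1 rose and 4 fell (median difference -0.23). The collagen-binding proteoglycan lumican (Lum) read 6.03 and 5.87 against 7.36, 7.22 and 7.49, a difference of -1.41 ± 0.23 (adjusted p = 0.00245). The collagens Col6a2 (-0.61 ± 0.14) and Col15a1 (0.60 ± 0.16) went in opposite directions, and matrix Gla protein (Mgp) fell by 0.98. These last 3 passed in 3, 2 and 2 of the 5 fits without 1 array, and the falls in the list numbered 1 without high-fat array 2, 3 without normal diet array 2 and 2 without any other 1 array. Of 24 macrophage and dendritic cell genes 2 rose and 1 fell, and of 12 endothelial genes 2 rose and 0 fell, among them Pecam1 by 0.96 ± 0.23 (adjusted p = 0.0157). Without high-fat array 1 Pecam1 missed the threshold (0.153) and the endothelial list had 0 rises, and it had 1 without any other 1 array. The macrophage list had 1 rise in each fit without 1 array, with 3 falls without high-fat array 1 and 0 in the other 4.

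Pancreatic enzyme genes varied widely between arrays of the same diet. Of the 17 measured acinar genes, 0 passed by limma and 0 had an unadjusted p under 0.05 (median difference -2.32). Their mean level was 10.87 and 6.68 on the high-fat arrays and 12.14, 7.26 and 13.29 on the normal diet arrays, so each diet holds arrays with high and low levels. With the acinar mean as a term in the fit, 1808 genes passed, 1706 of them among the 2197, and the counts were unchanged for iron absorption (4 rises, 1 fall), fat uptake (8 rises) and the interferon response (8 rises), whereas 10 of the 12 cell division genes that fell and 5 of the 7 fatty acid oxidation genes that rose passed again. Fat synthesis went from 3 falls to 1, with Scd1 at an adjusted p of 0.0554, glycolysis from 5 rises to 3, and the p53 and DNA damage list from 2 rises to 0.

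**Figure D3:**
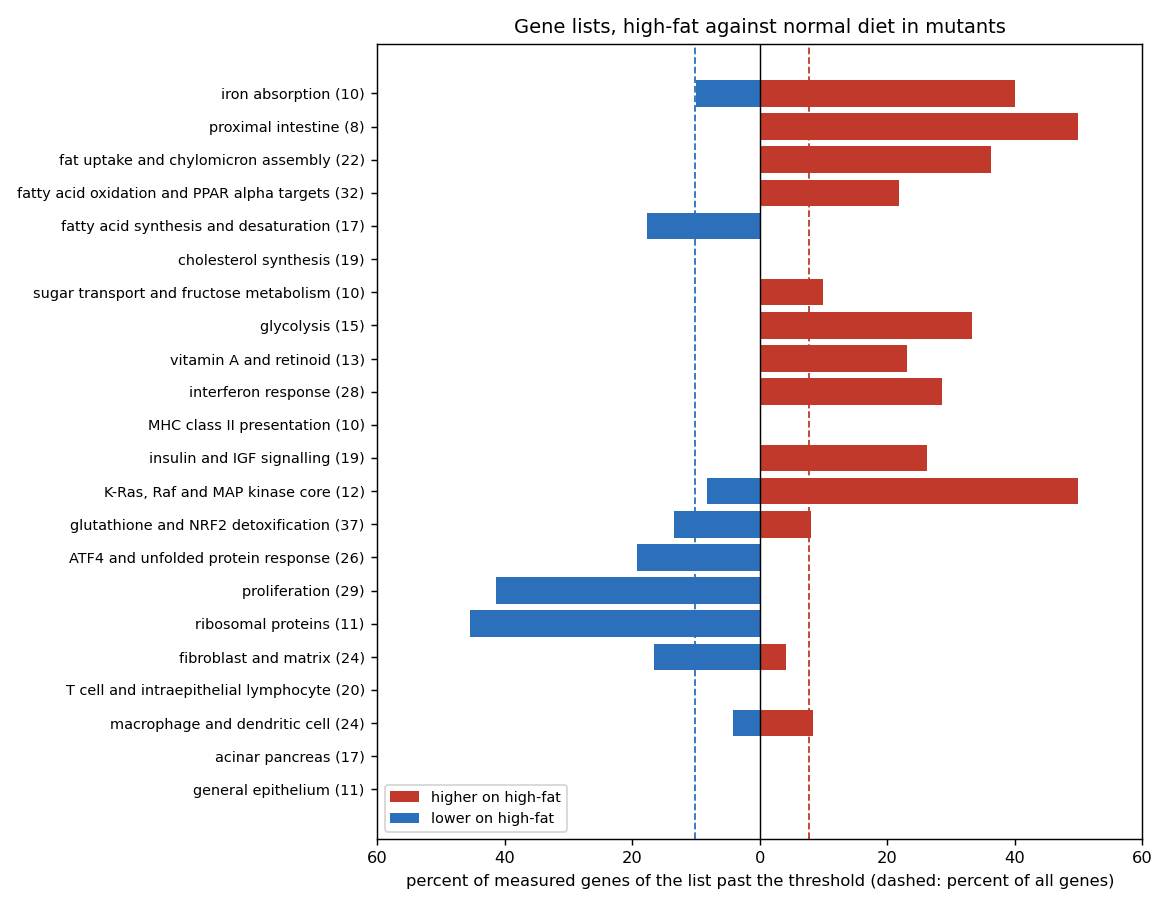
For 22 of the 54 lists, bars give the percent of each list's measured genes (number in brackets) that were higher (right) or lower (left) on high-fat diet in mutants, and dashed lines mark the percent among all genes, 7.67 higher and 10.1 lower. Of the lists shown, proximal intestine, MAP kinase, iron absorption, fat uptake, glycolysis and interferon reach furthest to the right, and proliferation and ribosomal protein lists furthest to the left.

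Among the other large rises were genes of nuclear regulation. Zbtb7a, a transcriptional repressor, read 8.76 and 8.48 on high-fat and 5.60, 5.66 and 5.49 on normal diet, a difference of 3.04 ± 0.15 (8.2-fold) and the smallest adjusted p of the 30 named genes, 4.44e-06. The histone demethylase Kdm5a read 6.63 and 6.71 against 4.15, 4.31 and 4.04, a difference of 2.50 ± 0.15 (5.66-fold, adjusted p = 1.51e-05). Both were well separated between the diets, and each rests on 1 probe set. The repressor of neuronal genes Rest rose by 2.45 on the probe set tested, which read 6.81 and 7.08 against 4.47, 4.67 and 4.34, but its other 2 probe sets differed by 0.43 and -0.05. Akap9, an anchor of protein kinase A at the centrosome and Golgi, rose by 2.21 ± 0.19, and its second probe set rose by 1.36. The scaffold Iqgap2 rose by 2.31 ± 0.21 (adjusted p = 0.000133), the corepressor atrophin (Atn1) by 1.96 ± 0.15, and Ocel1 by 1.96 ± 0.18. Carbonic anhydrase Car1 read 5.57 and 4.62 against 3.02, 3.18 and 3.28 (1.94 ± 0.42, adjusted p = 0.01), and missed the threshold without high-fat array 1 (0.104).

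Large falls outside the pathways above included Myo7a, an unconventional myosin, which read 6.40 and 6.29 against 8.51, 8.48 and 8.36. Its difference was -2.10 ± 0.17 (4.3-fold lower, adjusted p = 7.58e-05). Bbip1, a part of the complex that sorts cargo to cilia, read 8.31 and 8.29 against 10.15, 10.05 and 9.98, a difference of -1.76 ± 0.17 (adjusted p = 0.000178). In both genes the 2 high-fat arrays nearly coincided. Gadd45gip1, a mitochondrial ribosome protein, fell by 1.56 (adjusted p = 7.58e-05), and Dctn6, a dynactin subunit, by 1.44 (adjusted p = 0.000779). With probe sets averaged Gadd45gip1 fell by 0.66 and Dctn6 by 1.05. Socs3, a feedback inhibitor of cytokine signalling, fell by 1.49 (adjusted p = 0.00596) on 1 of its 3 probe sets. The others differed by -0.58 and -0.23 without passing, and without high-fat array 2 the adjusted p was 0.0638. The sialic acid enzyme Npl fell by 1.48, with an adjusted p of 0.0593 without high-fat array 2, and the thyroxine carrier transthyretin (Ttr) differed by -1.48 (adjusted p = 0.0334) and passed in 0 of the 5 fits without 1 array.

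Probe sets of the same gene did not always move together. Among 4956 genes with several probe sets, 104 had 1 called higher and another called lower in mutants, 39 did so in wild type, and 25 in both. Of 1055 called genes with several probe sets, 452 (42.8%) had another called the same way and 66 had another called the opposite way. Pdxdc1, which counted as a fall of 2.40 on its brightest probe set (8.71 and 6.03 against 9.83, 9.78 and 9.68), had others that differed by 4.27, 0.40 and -0.45. For Phip, counted as a fall of 1.70, the other 3 differed by 1.8, 0.00 and -0.15. The tested probe set of the splicing gene Snrnp48 fell by 1.84, while the others differed by 0.36, -0.09 and -0.45. Xist, the RNA of the inactive X chromosome, had probe sets at -0.97, 0.13 and 1.48. The direction for Pdxdc1, Phip and Xist is therefore that of 1 probe set, and with probe sets averaged per gene Pdxdc1 and Xist turned to 0.46 and 0.21.

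**Figure D4:**
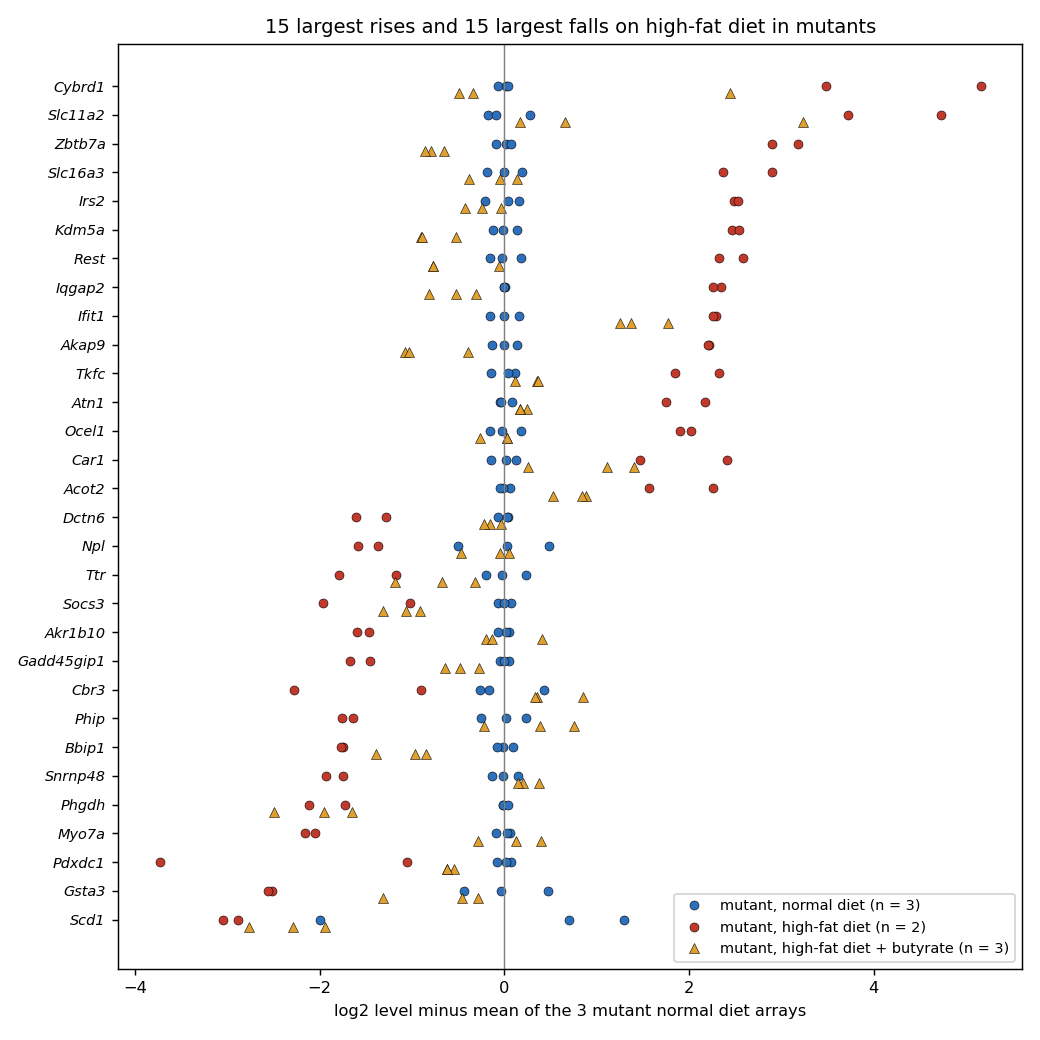
Each row is 1 of the 15 largest rises (top) and 15 largest falls (bottom) among genes past the threshold without overlap between the diets, and each point is 1 mutant array: the log2 level minus the mean of the 3 normal diet arrays. The high-fat arrays lie on 1 side of the normal diet arrays in each row by the rule that chose the genes. Scd1 and Npl have widely spread normal diet arrays. The butyrate arrays lie near 0 for most but not all of the genes, which the same rule partly sets.

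The same diet comparison in wild type used 4 other arrays, which share none with the mutant comparison but come from the same array series. On wild-type normal diet array 1 the spike control BioB-3 read 10.79, against 6.81 to 8.57 on all other arrays of the series. The part of this array's spike levels in the results was not tested. In wild type 1368 genes (11%) passed the test, 696 higher and 672 lower on high-fat diet. Of these, 1009 were also called in mutants, each in the same direction, which is 45.9% of the mutant calls and 73.8% of the wild-type calls. Of the 2197 genes called in mutants, 2146 had a wild-type difference of the same sign, and the differences correlated across genes with r = 0.54. The sign count and this correlation both come from genotypes that share array series within each diet. The share of same signs over all genes was not computed. The wild-type count was 606 without wild-type high-fat array 1, 439 without high-fat array 2, 1520 without normal diet array 1 and 965 without normal diet array 2.

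Some of the iron genes passed in wild type and some did not. Slc11a2 read 10.49 and 10.20 on high-fat and 7.68 and 6.68 on normal diet (3.16 ± 0.77, adjusted p = 0.0255), a call lost without either wild-type high-fat array or normal diet array 2 (adjusted p up to 0.12) and with the acinar term (0.0651). Epas1 differed by 1.46 ± 0.26 (adjusted p = 0.00647) and did not pass when high-fat array 1 of the wild type was left out (0.0526). Cybrd1 read 8.17 and 7.47 against 5.45 and 5.40 without passing (2.39 ± 0.80, adjusted p = 0.0818). The difference between genotypes in the diet difference of Cybrd1 was 1.93 ± 1.09 (adjusted p = 0.915), a difference that did not pass. Ferroportin (Slc40a1) read 10.35 and 10.25 against 10.67 and 10.71 in wild type, and its diet difference was higher in mutants by 1.56 ± 0.47, also without passing (adjusted p = 0.915). Slc16a3 differed by 3.02 ± 0.22, Zbtb7a by 3.29 ± 0.16, Kdm5a by 2.52 ± 0.17 and Rest by 2.38 ± 0.25 in wild type, all past the threshold there and in each of the 4 fits without 1 wild-type array.

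The interferon list had 8 rises and 0 falls in mutants (median difference 0.53) and 3 rises and 2 falls in wild type (median difference 0.04). However, 0 of its genes passed the limma test of the difference between genotypes, and 8 had an unadjusted p under 0.05. The list mean was 6.65 and 6.63 on high-fat against 6.09, 6.03 and 6.08 on normal diet in mutants. In wild type it was 7.34 and 6.99 against 6.84 and 7.53, so the wild-type normal diet arrays lay on both sides of the high-fat arrays. Ifit1 differed by 1.85 ± 0.22 in wild type and Irf7 by 0.76 ± 0.17, and Irf7 lost its call without wild-type high-fat array 1 or normal diet array 2 (adjusted p up to 0.129). The smallest p was that of Ifi44l. It read 4.38 and 4.21 on high-fat against 2.92 and 2.84 on normal diet in wild type. In mutants it read 2.94 and 3.04 against 2.75, 3.04 and 3.14 (difference between genotypes -1.40 ± 0.18, adjusted p = 0.0588). These levels are low for the arrays, and with its probe sets averaged the difference between genotypes was -0.79 (limma, adjusted p = 0.91). Ubd, an interferon-induced ubiquitin-like protein, read 3.66 and 3.81 against 6.31 and 8.16 in wild type and 3.64 and 3.84 against 3.81, 3.88 and 3.86 in mutants (3.39 ± 0.59, adjusted p = 0.252). The cell division list had 12 falls in mutants and 3 in wild type, with medians of -0.51 and -0.37, and 0 of its genes passed the limma test of the difference between genotypes or had an unadjusted p under 0.05 in it. Among other lists, rises in mutants and wild type numbered 6 and 6 in the MAP kinase core, 5 and 6 in insulin signalling and 8 and 6 in fat uptake. They numbered 5 and 4 in glycolysis and 3 and 3 in vitamin A handling, and ribosomal protein genes gave 5 and 6 falls. Wild type had fewer rises in iron absorption (2 against 4) and fatty acid oxidation (2 against 7). In each of these lists 0 genes passed that limma test.

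By the test of the diet difference between genotypes, 1 gene of 12393 (0.00807%) passed, and 621 had an unadjusted p under 0.05. It was St3gal4, a sialyltransferase of glycoproteins and glycolipids. In mutants it read 11.10 and 11.10 on high-fat and 11.93, 12.11 and 12.06 on normal diet (-0.93 ± 0.13, adjusted p = 0.00136). In wild type it read 5.97 and 6.44 on high-fat and 12.09 and 12.28 on normal diet (-5.98 ± 0.15, adjusted p = 2.27e-09). The difference between them was 5.05 ± 0.20 (adjusted p = 4.18e-07), on 1 probe set. The wild-type high-fat arrays alone were low: the wild-type butyrate array read 12.13. With the difference in the other direction the 3 smallest p-values were those of Ifi44l, Myo7a and Gsta3. Myo7a differed by -0.31 in wild type and by -1.79 ± 0.25 between genotypes (adjusted p = 0.0788), and Gsta3 by -0.06 and -2.48 ± 0.48 (adjusted p = 0.53). Irs2 rose by 1.1 ± 0.18 in wild type, against 2.51 in mutants, with a difference of 1.41 ± 0.24 that did not pass (adjusted p = 0.252). The number of genes past this test was 10 without wild-type normal diet array 2, 6 without wild-type normal diet array 1, 5 without mutant high-fat array 2, 3 without mutant high-fat array 1 and 1 or 2 without any other array.

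**Figure D5:**
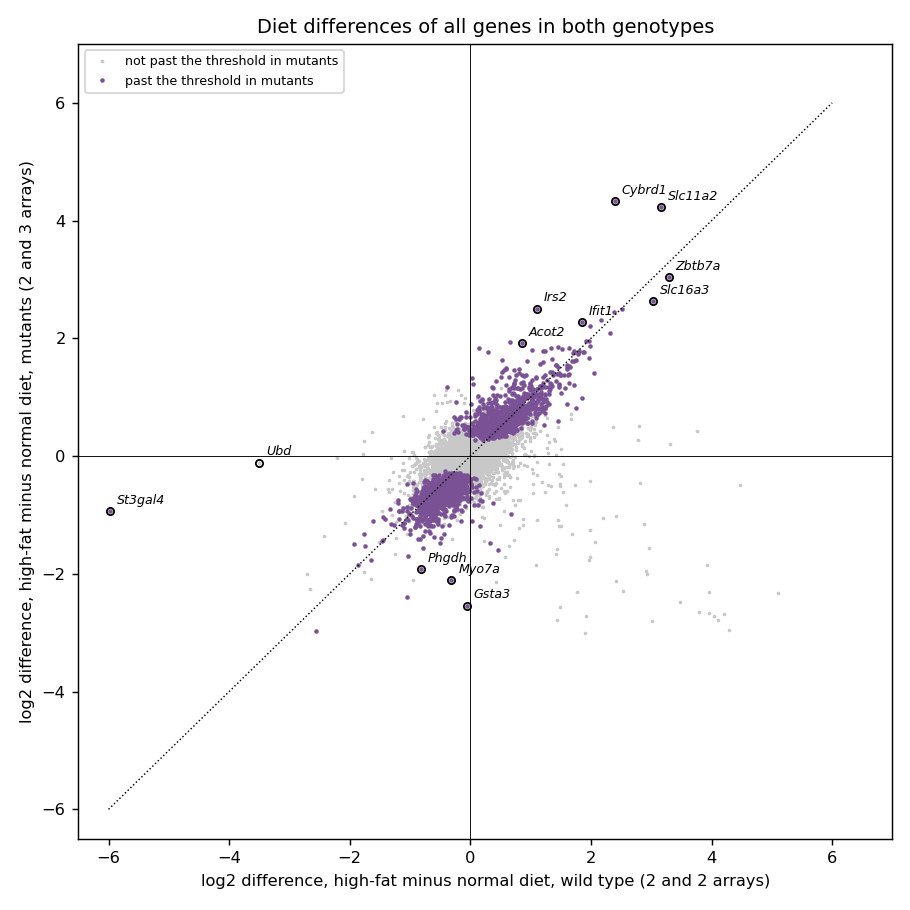
Each point is 1 of 12393 genes, with the log2 high-fat minus normal diet difference in wild type on the horizontal axis and in mutants on the vertical axis, and the dotted line marks equal differences. Genes past the threshold in mutants (purple) lie mostly in the quadrants of shared sign, whereas St3gal4 at -5.98 and -0.93 lies far from the line.

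The 3 mutant arrays of high-fat diet with butyrate, which bacteria of the gut make from fibre, were a further array series. For many of the genes named they read near the normal diet arrays. These genes were chosen for a difference between the high-fat and normal diet arrays, so that reading is partly set by the choice. Over all genes, the 3 butyrate arrays lay below both mutant high-fat arrays in 21.8% and above both in 27.2%. In Zbtb7a they read 4.79, 4.93 and 4.73, and in Irs2 5.14, 5.32 and 5.52, below the normal diet arrays or level with them. In Slc16a3 they read 5.69, 5.87 and 5.35. Cybrd1 read 5.79, 8.72 and 5.93 and Slc11a2 7.46, 10.53 and 7.96, so that butyrate array 2 stood between the diets. Ifit1 read 8.53, 8.01 and 8.14, above the normal diet arrays, and Phgdh 6.72, 7.57 and 7.27, level with the high-fat arrays. Their 18S mean was 7.56, 8.84 and 7.87, below that of both other mutant groups.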

How the data were processed

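Duodenum RNA of 13 mouse samples was hybridised to Affymetrix arrays whose probe set names are those of a 3′ expression array, although the labels name a whole-transcript labelling kit. The deposited log2 values were made by the authors by RMA in Affymetrix Expression Console 1.1, per the submitters' processing notes, and ran from 1.76 to 14.2. Scanner files were not used here, and array number limits precision. Of 22690 probe sets, 64 were controls and 20380 carried exactly 1 gene symbol, and each of 12393 genes is represented by its brightest probe set on average across the 13 arrays.

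limma 3.58.1 in R 4.3.3 fitted 6 group means on all 13 arrays (7 residual degrees of freedom, intensity trend), and 3 comparisons were tested, two-sided, with Benjamini-Hochberg adjustment at 0.05. Every adjusted p for a gene is limma's. Nothing in the labels says how the replicates were sampled beyond a number, so the p-values reflect differences among these samples, which may be technical. The procedure was tested on simulated data.

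Genes were named by rule: the 15 largest rises and 15 largest falls past the threshold without overlap between arrays, named gene models only; for the interaction and wild type the 5 largest each way, or the 3 smallest p-values; and up to 4 members of each of 54 gene lists with the smallest p. Araf, the control probe sets and the further list members given as not passing were picked with their values known. The comparison, lists and rules were chosen with earlier results of these data known. Promoter sequences are from RefSeq. Alternatives tried were other normalization, filters, probe set averaging, array weights, array subsets, each array left out and, added after seeing the data, the acinar gene mean as a term.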

Additional observations from a re-analysis of the deposited data

Results flagged for a closer look

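The diet difference of St3gal4 (high-fat minus normal diet) was higher in mutants than in wild type by 5.05 ± 0.20 on the log2 scale, the value for which the test of the difference between genotypes passed (limma, adjusted p = 4.18e-07). The 2 wild-type high-fat arrays read 5.97 and 6.44, and the other 11 arrays read 11.10 or higher. The gene has 1 probe set, so no second measurement was at hand.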

How the results depend on the processing

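In mutants the count of 2197 genes was 2270 after quantile normalization, 2281 without dim genes, 2141 with no intensity trend and 1808 with the acinar term, and 258 at least 2-fold. It was 990 to 1522 with 1 array left out. Averaging probe sets gave 2412, of which 52.1% were higher (43.3% in the main fit), and turned Pdxdc1 (0.46), Nr1d2 (0.08), Ccng1 (0.04) and Xist (0.21) upward. Array weights gave 3046 and the 5 arrays alone 2876. The mutant arrays share only a replicate number. With that number as a block 1600 genes passed, 1539 of them shared, and deviations of same-numbered arrays correlated with r = 0.28 and 0.42 (2 pairs). Pairs of unlike number gave -0.42 and -0.28. The deviations of the 2 high-fat arrays from their mean are mirror images. These correlations are therefore not independent and cannot show whether arrays were paired. The interaction count of 1 was 2 after quantile normalization, with averaged probe sets or with the 9 arrays alone, and 1 to 10 without 1 array. The wild-type count of 1368 was 637 with array weights, 116 on its own 4 arrays, 895 with the acinar term, and 439 to 1520 without 1 array. The cause of these changes was not tested. In mutants the residual degrees of freedom were 7 in the main fit, 6 without 1 array and 3 on the 5 arrays alone. Of 120 called genes examined, 50 passed in all 5 fits without 1 array and 70 did not, with adjusted p up to 0.436. In total 16 were lost with averaged probe sets, 21 with the block, 20 with the acinar term, 6 on the 5 arrays alone and 5 after quantile normalization, and 29 of 54 list medians moved by over 1 SD in some setting.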

Other observations

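Of 12 heat shock genes 0 rose and 2 fell (median difference -0.16): the mitochondrial chaperonin partner Hspe1 reached at most 10.04 on the high-fat arrays and read 10.91, 10.73 and 10.65 on normal diet, a difference of -0.75 ± 0.09 (limma, adjusted p = 0.000729) that passed in every fit without 1 array. The lens and muscle chaperone Cryab fell by 0.85 and passed in 2 of those 5 fits, and 1 gene of the list fell without high-fat array 1, high-fat array 2 or normal diet array 2. Of 8 Paneth cell genes, Kcnn4, a potassium channel, fell from 9.57, 9.19 and 9.14 to 8.35 and 8.49 (adjusted p = 0.00919), and missed the threshold without high-fat array 1 (0.0734). Of 10 calcium absorption genes 2 rose and 0 fell, with 0 or 1 rise in fits without 1 array. The vitamin D receptor Vdr read 11.31 and 11.04 against 10.62, 10.56 and 10.60 (0.58 ± 0.14, adjusted p = 0.0165), and missed the threshold without high-fat array 1 or normal diet array 2, with adjusted p up to 0.145. S100g, the vitamin D-induced calcium carrier, read 11.23 and 9.56 against 11.50, 11.59 and 12.16 without passing (adjusted p = 0.0994).

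The circadian clock list held 2 rises and 1 fall among 17 genes. Nr1d1 read 9.19 and 7.94 against 7.54, 7.82 and 7.18 and Nr1d2 9.39 and 9.41 against 9.87, 9.92 and 9.78, and both passed in 1 of the 5 fits without 1 array. The labels do not give the hour at which tissue was taken.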
